A study of Oryza sativa with 11 samples.

Results

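The GH3 genes of rice were followed across root tips of a salt-tolerant and a salt-sensitive line. A gene was taken as a member where its RefSeq symbol or a synonym began with GH3 or OsGH3. The rule found 9 genes (GH3.1, GH3.2, GH3.4, GH3.5, GH3.6, GH3.7, GH3.8, GH3.9 and GH3.11), of 17905 genes with a probe set on the Affymetrix Rice Genome Array. They were measured by 11 of 57258 probe sets, of which 3 belong to GH3.7 and 1 to each of the other genes. Members were chosen by name alone, and no measured value entered the rule.

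GH3 proteins are acyl acid amido synthetases, enzymes that join an amino acid to a plant hormone. Most studied members act on auxin (indole-3-acetic acid, IAA) and so lower the free, active hormone, and many GH3 genes are themselves rapidly induced by auxin, which closes a feedback loop in growing organs such as the root tip. The best known exception is JAR1, a name that rice GH3.5 also carries, which joins isoleucine to jasmonic acid and thereby makes jasmonoyl-isoleucine, the form of jasmonate that its receptor reads.

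The salt-sensitive line was IR29 and the salt-tolerant one FL478, a single recombinant inbred line, and both reach a given stage at about the same time. FL478 under control conditions (n = 3 arrays), FL478 under salt (n = 3), IR29 under control conditions (n = 2) and IR29 under salt (n = 3) made up the 4 groups, with 1 biological replicate per array. Control solution had a conductivity of 1.1 dS/m and salt solution 7.4 dS/m, a level approached over 3 days with sodium and calcium chloride and then held for 5 days. All plants were harvested 30 days after germination at early tillering and the last 2 cm of the roots were taken. The labels describe hydroponic culture and the methods describe sand tanks irrigated with nutrient solution. Each genotype is 1 line, so a difference between them is a difference between these lines and cannot be assigned to tolerance.

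Levels are given as the deposited signal, the linear brightness of a probe set after scaling of each array, and changes as differences of log2(signal + 32) fitted over all 11 arrays with limma. This added constant makes the changes of dim probe sets smaller than they are. A change was called where its p, adjusted by the Benjamini-Hochberg method over all 57258 probe sets, was under 0.10. Levels of different genes are not set against each other, since probe sets differ in how brightly they respond. In a root tip sample, fewer cells of a type and less RNA per cell cannot be told apart, and precision is limited by how few arrays each group holds.

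Arrays of 1 group correlated at 0.963 to 0.978 and arrays of different groups at 0.945 to 0.975 (Pearson's r of log2 values over all probe sets, as a description). Median signals lay between 48.8 and 61.3. The summed signal of the 6 measured of 10 named root markers was between 58970 and 73740 on all arrays. LSI1 alone had group means of 29050 to 33590. Single root markers moved apart, with 3 higher and 3 lower under salt in each genotype. LSI2 changed by -0.33 in FL478 and -0.70 in IR29 (limma adjusted p = 0.512), and IRT1 by -0.45 and 0.46. The 4 measured of 13 named leaf and shoot markers summed to 3258 to 3784 in FL478 controls, 2479 to 3034 in FL478 under salt, 2426 to 2802 in IR29 controls and 2135 to 2996 in IR29 under salt. Most of this sum was GLO1, with group means of 2215 to 2901. The 6 measured of 7 named markers of dividing cells summed to 7832 to 9505, 8781 to 11490, 9332 to 11780 and 7957 to 11020 in the same order of groups. The log2 ratio of the 3′ to the 5′ GAPDH probe set, a sign of RNA integrity, was 0.58 ± 0.06 (SD, n = 3) in FL478 controls and 0.77 ± 0.14 (n = 3) in FL478 under salt, against 0.65 ± 0.0086 (n = 2) and 0.88 ± 0.16 (n = 3) in IR29. The ratio thus moved with salt in both genotypes.

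Salt changed no GH3 gene past the threshold in either genotype. GH3.6 was 1.69-fold higher in IR29 than in FL478 when both were salted (on the scale of signal + 32), the 1 difference called among the GH3 genes. It was also the 1 GH3 gene whose salted arrays did not overlap the controls, below them in FL478 and above them in IR29, as was the case for 14% of the array in FL478 and for 21.4% of it in IR29 (shares of probe sets in either direction). Neither of these salt changes was called, and the control arrays of the genotypes overlapped. GH3.5 had a lower mean in FL478 under salt, and its replicates overlapped. The 6 genes GH3.2, GH3.5, GH3.6, GH3.7, GH3.8 and GH3.9 were measured above a signal of 400 on every array, GH3.4 lay between 71.3 and 162.8, and GH3.1 and GH3.11 were each under 32 on 1 array.

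**Figure D1:**
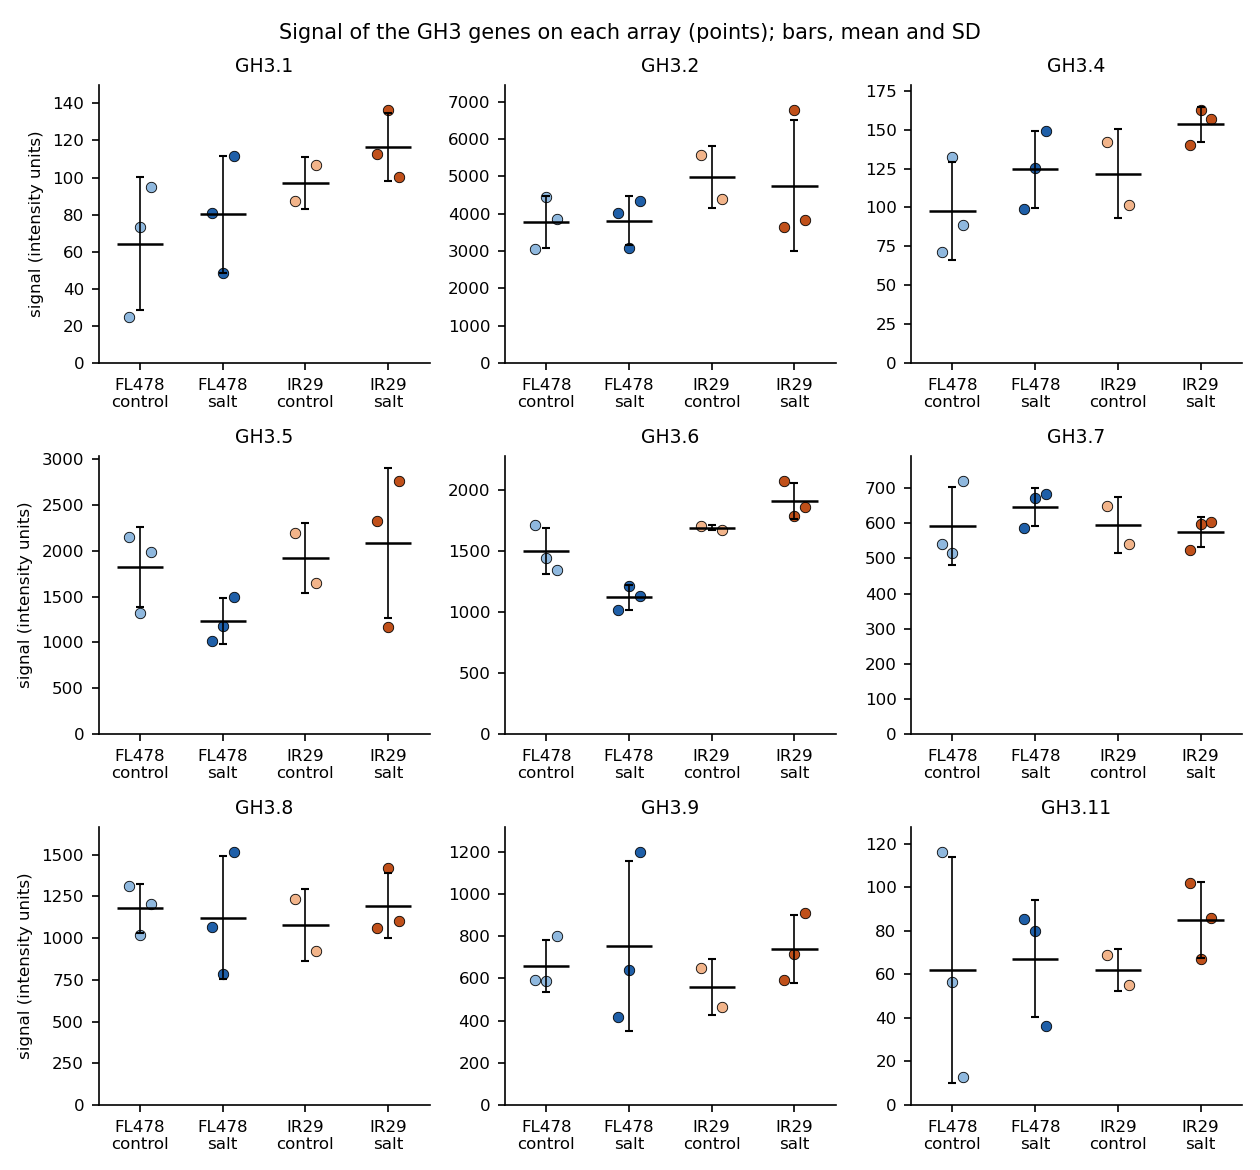
Signal of each GH3 gene on each of the 11 arrays (vertical axes, deposited linear signal from 0, scaled separately per gene; brightest probe set) by group (horizontal axes). Points are arrays and lines the group mean with SD. The GH3.6 points of FL478 under salt, at 1014 to 1217, lie below all of its other arrays, while every other gene has overlapping groups in the comparisons of salt with control and of IR29 with FL478.

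GH3.6 is assigned to the family by name, and no substrate for it is given in the sources used here. In FL478 its signals were 1710.6, 1444.6 and 1344.0 in the control arrays and 1014.2, 1216.8 and 1129.3 under salt. In IR29 they were 1706.3 and 1675.4 in the control arrays and 2075.7, 1789.8 and 1862.5 under salt. Every salted FL478 array was thus below every FL478 control, and every salted IR29 array was above both IR29 controls and above all FL478 arrays.

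The mean signal of GH3.6 was ordered as IR29 under salt (1909 ± 149, SD, n = 3), IR29 control (1691 ± 21.9, n = 2), FL478 control (1500 ± 189, n = 3) and FL478 under salt (1120 ± 102, n = 3). None of the 3 neighbouring steps in this order was called. The step between the 2 controls was 0.18 (SE 0.17) on the log2 scale and their arrays overlapped, with IR29 control at 1675.4 inside the FL478 range. The distance between the genotypes under salt was 0.75 (SE 0.15, 95% interval 0.42 to 1.09), with a limma adjusted p of 0.0516, and the arrays did not overlap. Of all 57258 probe sets, 1.75% were called in that comparison and 15.6% had groups that did not overlap, while 1 of the 9 GH3 genes (the same gene in both cases) did so. Called differences with IR29 higher made up 0.863% of all probe sets.

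The call rests on a narrow margin. It was lost when FL478 salt replicate 1 (limma adjusted p = 0.158), FL478 salt replicate 3 (0.131), IR29 salt replicate 1 (0.200) or IR29 salt replicate 3 (0.154) was left out, and when only the salted arrays were fitted (0.151), although the difference itself stayed between 0.69 and 0.81. With the GAPDH ratio as a covariate the difference was 0.78 and the adjusted p 0.0899.

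**Figure D2:**
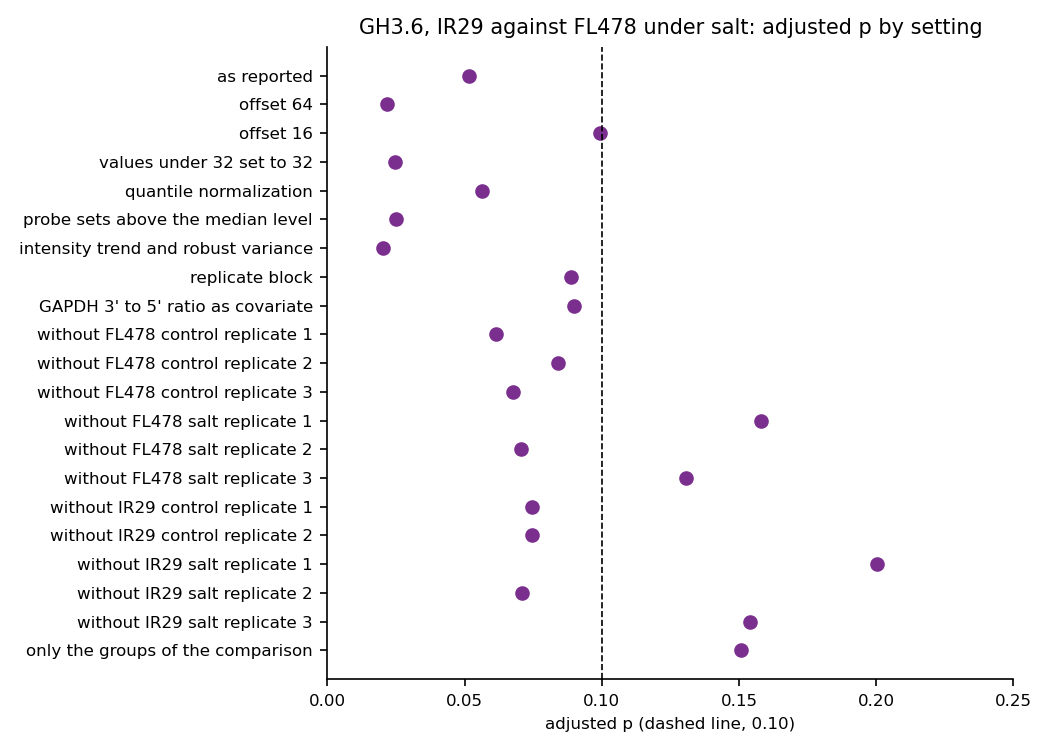
Limma adjusted p (horizontal axis) of the GH3.6 difference between IR29 and FL478 under salt, as reported and under each alternative (rows, 1 point each), with the threshold of 0.10 as a dashed line. The value is 0.0516 as reported, and the 5 points to the right of the line, from 0.131 to 0.200, are the fits without 1 of 4 salted arrays and the fit of the salted arrays alone.

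Within FL478, the change of GH3.6 under salt was -0.41 on the log2 scale (SE 0.15, 95% interval -0.74 to -0.07), with an unadjusted p of 0.0222 and a limma adjusted p of 0.448, so the change was not called. Within IR29 the value was 0.17 (SE 0.17, interval -0.21 to 0.55, limma adjusted p = 0.968). The difference between these changes was 0.58 (SE 0.23, interval 0.07 to 1.08), with an unadjusted p of 0.0288 in limma's interaction test and an adjusted p of 1.00. With the GAPDH ratio as a covariate the same difference was 0.59. The markers of dividing cells also had opposite signs in the genotypes: 6 of 6 were higher under salt in FL478 (median 0.09) and 6 of 6 lower in IR29 (median -0.11). Of all genes, 54.8% were higher under salt in FL478 and 54.4% in IR29. The marker values ran from 0.0035 to 0.28 in FL478 and from -0.38 to -0.018 in IR29. Limma called 0 of them in each, against 0.169% and 0.00524% of all probe sets. At an unadjusted p under 0.05 there were 0 in each, against 8.97% and 6.18%. Their part in the GH3.6 values was not tested.

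GH3.5, the JAR1 homologue that makes the active jasmonate conjugate in rice, had the largest change of the 9 genes in FL478, though it was not called. Its control signals were 2151.5, 1327.3 and 1988.9, against 1011.8, 1181.9 and 1501.5 under salt. In IR29 it read 2193.6 and 1653.8 in the controls and 2326.1, 1171.3 and 2765.8 under salt. The FL478 groups overlap through control replicate 2 and salt replicate 3, and IR29 salt replicate 2 lies far below the other salted IR29 arrays.

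The GH3.5 means ran from IR29 under salt (2088 ± 824, SD, n = 3) through IR29 control (1924 ± 382, n = 2) and FL478 control (1823 ± 437, n = 3) to FL478 under salt (1232 ± 249, n = 3), the order found for GH3.6, and neighbours in it overlapped throughout. The change with salt was -0.54 in FL478 (SE 0.32, interval -1.26 to 0.18, limma adjusted p = 0.682) and 0.04 in IR29 (SE 0.36, adjusted p = 1.00). Their difference was 0.58 (SE 0.48, adjusted p = 1.00). With the GAPDH ratio as a covariate, the values were -0.06 in FL478 and 0.60 in IR29, and their difference was 0.67, so both salt changes moved while the difference stayed near its size.

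Between the genotypes under salt, GH3.5 was 0.68 higher in IR29 (SE 0.32, interval -0.04 to 1.40, limma adjusted p = 0.476). Without IR29 salt replicate 2 the value was 1.04 and without IR29 salt replicate 3 it was 0.43, and neither was called. In control plants the genotypes differed by 0.09 (SE 0.36, limma adjusted p = 0.984).

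**Figure D3:**
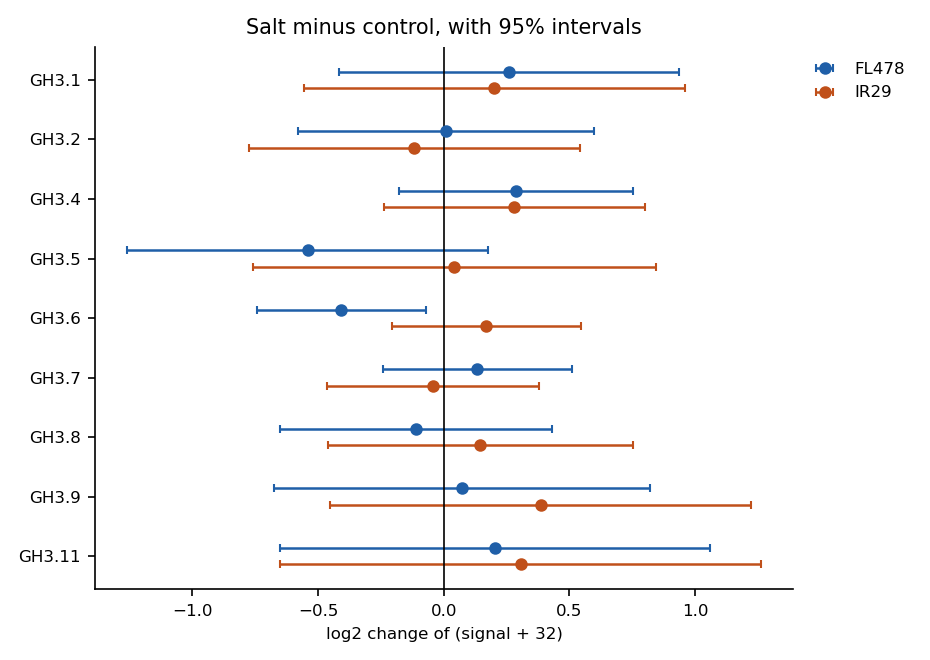
Change with salt for each of the 9 GH3 genes (rows) in FL478 and in IR29 (horizontal axis, salt minus control of log2(signal + 32); brightest probe set). Points are limma estimates with 95% intervals. The FL478 interval of GH3.6, -0.74 to -0.07, is the 1 that leaves out 0.

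GH3.2 and GH3.8 are known in rice as enzymes that attach amino acids to IAA. GH3.2 read 3067.2, 4454.8 and 3845.0 in FL478 controls and 4020.3, 3070.6 and 4333.2 in FL478 under salt. In IR29 it read 5567.2 and 4395.9 in the controls and 3651.2, 6782.4 and 3820.0 under salt. The means of the salted and control arrays of FL478 nearly coincided, at 3808 ± 658 and 3789 ± 696 (SD, n = 3 each), and IR29 salt replicate 2 was the highest of all arrays.

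The salt changes of GH3.2 were 0.01 in FL478 (SE 0.26, interval -0.58 to 0.60) and -0.12 in IR29 (SE 0.30, interval -0.78 to 0.54). Its group means were ordered as IR29 control (4982 ± 828, n = 2), IR29 under salt (4751 ± 1761, n = 3), FL478 under salt and FL478 control, and no neighbours in this order differed beyond their spread.

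GH3.8, also called OsMGH3 and studied in rice flowers, read 1311.1, 1020.8 and 1205.2 in FL478 controls and 1065.0, 787.2 and 1516.6 under salt. In IR29 the signals were 1232.9 and 924.4 in the controls and 1061.9, 1418.8 and 1101.4 under salt. All 4 groups overlapped, and their means of 1079 to 1194 lay within 1 SD of each other. Its salt changes were -0.11 in FL478 (SE 0.24, interval -0.65 to 0.43) and 0.15 in IR29 (SE 0.27, interval -0.46 to 0.75).

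GH3.1, which likewise acts on IAA in rice, was dim, at 25, 73.3 and 94.7 in FL478 controls and 81.1, 48.4 and 111.4 under salt. In IR29 it was at 87.1 and 107.0 in the controls and 112.7, 136.5 and 100.5 under salt. The group means were ordered from low to high as FL478 control (64.3 ± 35.7), FL478 under salt (80.3 ± 31.5), IR29 control (97.1 ± 14.1) and IR29 under salt (117 ± 18.3), with neighbouring groups overlapping throughout. Salt changes were 0.26 in FL478 (SE 0.30) and 0.20 in IR29 (SE 0.34).

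GH3.9 had its widest spread in FL478 under salt, where the 3 signals were 418.1, 639.5 and 1200.0, against 591.7, 586.3 and 800.0 in the controls. The IR29 signals were 651.3 and 463.6 in the controls and 592.0, 717.4 and 908.4 under salt. One salted FL478 array was therefore the highest of all 11 and another the lowest. Its salt changes were 0.07 in FL478 (SE 0.34, interval -0.68 to 0.82) and 0.39 in IR29 (SE 0.38, interval -0.45 to 1.22). The IR29 value ranged from 0.15 to 0.62 with 1 array left out, the lowest without IR29 control replicate 2 and the highest without IR29 control replicate 1, and was 0.16 with the replicate block and 0.85 with the GAPDH covariate.

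GH3.4 was at 71.3 to 132.4 in FL478 controls, 99.1 to 148.9 in FL478 under salt, 101.5 to 141.9 in IR29 controls and 140.5 to 162.8 in IR29 under salt. Salt and control groups overlapped in both lines, with changes of 0.29 in FL478 (SE 0.21) and 0.28 in IR29 (SE 0.23). GH3.11 was read by a probe set of the type that Affymetrix marks as able to bind related transcripts, at 12.8 to 116.2 in FL478 controls and 36.3 to 85.4 under salt. In IR29 it lay at 55.1 to 68.9 in the controls and 67.0 to 101.7 under salt, and its salt changes were 0.20 (SE 0.38) and 0.31 (SE 0.43).

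The 3 probe sets of GH3.7 did not all measure it. The brightest gave 539.9, 515.8 and 721.0 in FL478 controls and 585.5, 673.3 and 683.9 under salt. In IR29 it gave 650.6 and 539.8 in the controls and 524.5, 597.6 and 602.7 under salt. The 4 groups overlapped, with means of 575 to 648.

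A second GH3.7 probe set, again of the type open to related transcripts, read 36.9 to 113.8, and the third was under 32 on 10 of 11 arrays. The salt change of the brightest was 0.13 in FL478 (SE 0.17, interval -0.24 to 0.51) and -0.04 in IR29 (SE 0.19, interval -0.47 to 0.38). The second gave 0.39 (SE 0.23) and -0.05 (SE 0.26), and the third 0.12 (SE 0.38) and -0.26 (SE 0.43), none of them called.

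Over the family, the estimate was higher under salt for 6 and lower for 3 of 9 genes in FL478, with a median of 0.07. In FL478 limma called 0 GH3 genes at an adjusted p under 0.10, against 0.169% of all probe sets, and 1 had an unadjusted p under 0.05, against 8.97%. In IR29 it was higher for 7 and lower for 2, with a median of 0.17. There limma called 0 genes, against 0.00524% of all probe sets, and 0 had an unadjusted p under 0.05, against 6.18%. The GH3 genes were counted by brightest probe set. Counted likewise, 44 of 17905 genes were called in FL478 and 2112 had an unadjusted p under 0.05, with 1 and 1190 in IR29.

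Groups of salt and control arrays failed to overlap for GH3.6 alone in each genotype, while 14% of the probe sets on the array did so in FL478 and 21.4% did so in IR29. Among all 17905 genes, 54.8% were higher under salt in FL478 (median 0.03) and 54.4% in IR29 (median 0.03). The difference of the salt changes was above 0 for 5 genes and below 0 for 4, with limma calling 0 GH3 genes and 0% of all probe sets, and 1 GH3 gene against 4.53% of all probe sets under an unadjusted p of 0.05.

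These zeros limit a change only loosely. The 95% intervals reached 0.34 (GH3.6) to 0.86 (GH3.11) log2 units to either side of the estimate in FL478, and 0.38 to 0.96 in IR29.

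The estimate was higher in IR29 than in FL478 for 7 of 9 GH3 genes in control plants (median 0.16) and for 8 of 9 under salt (median 0.27), against 53.2% and 52.4% of all genes. In control plants limma called 0 of the 9, against 0.597% of all probe sets, 0 had an unadjusted p under 0.05, against 7.92%, and no gene had groups that did not overlap, against 23.9%. Under salt the 1 called gene was GH3.6, which was also the 1 gene with an unadjusted p under 0.05, against 11.2% of all probe sets. By brightest probe set, 445 of 17905 genes were called under salt and 2629 had an unadjusted p under 0.05. In control plants these counts were 130 and 1484. The exception in direction under salt was GH3.7. Both comparisons use the same arrays as the salt changes and are no separate evidence about them.

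**Figure D4:**
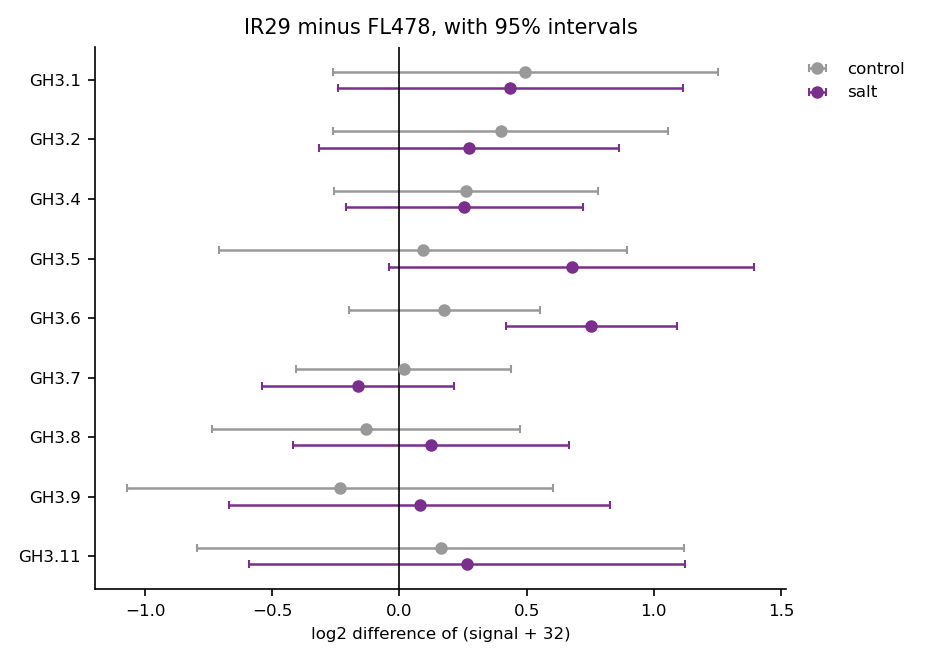
IR29 minus FL478 for each GH3 gene (rows) in control plants and under salt (horizontal axis, difference of log2(signal + 32); brightest probe set). Points are limma estimates with 95% intervals. GH3.6 under salt, at 0.75 with an interval of 0.42 to 1.09, is the 1 interval that leaves out 0.

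The GH3 enzymes sit between hormone synthesis, conjugate hydrolysis and signalling, and 97 of 114 named genes of these steps were measured. Under salt 46 of the 97 were higher and 51 lower in FL478, with 1 called by limma and 18 at an unadjusted p under 0.05, against 0.169% and 8.97% of all probe sets. In IR29, 50 were higher and 47 lower, with 0 called by limma and 6 at an unadjusted p under 0.05, against 0.00524% and 6.18%. The lists were drawn by name and hold genes whose part in a pathway is not established, such as lipoxygenases and OPR enzymes outside jasmonate synthesis and LAX1, here a gene of panicle branching that shares its name with auxin importers.

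On the jasmonate side of GH3.5, 15 of 17 genes of the synthesis list were lower under salt in FL478 (median -0.83), while 54.8% of all genes were higher. Single values ran from -2.08 to 0.55, with aoc at -0.13 (SE 0.19), OPR7 at -0.10 (SE 0.21) and AOS (LOC4334233) at -0.40 (SE 0.41). The list was drawn by name, and its median does not stand for every step of the pathway. Of the 17, 1 was called and 7 had an unadjusted p under 0.05, against 0.169% and 8.97% of all probe sets. In IR29, 9 of the 17 were lower (median -0.13). There limma called 0 and 0 had an unadjusted p under 0.05, against 0.00524% and 6.18% of all probe sets. Across all settings, 14 or 15 were lower in FL478 and 7 to 11 in IR29. With the GAPDH ratio as a covariate the FL478 median was -0.49.

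The called gene was AOS3 (LOC4328742), which carries the name of the allene oxide synthases. Its place in jasmonate synthesis was taken from that name alone. It went from 294 ± 44.4 to 81.4 ± 24.4 (SD, n = 3 each) in FL478 and fell by 1.54 on the log2 scale (SE 0.21, limma adjusted p = 0.0694). In IR29 its change was -0.21 (SE 0.24, limma adjusted p = 0.978), and the difference of the changes, 1.33 (SE 0.32), had a limma adjusted p of 0.951. The AOS3 call was lost in 11 of 20 alternatives, among them the GAPDH covariate (adjusted p = 0.442) and the omission of any 1 FL478 control array (0.120 to 0.220), FL478 salt replicate 1 (0.160) or 2 (0.144), either IR29 control (0.106) or IR29 salt replicate 1 (0.115).

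Under salt 16 of the 17 synthesis genes were higher in IR29 than in FL478 (median 0.73), against 52.4% of all genes. Limma called 0 of them, against 1.75% of all probe sets, and 4 had an unadjusted p under 0.05, against 11.2%. The number lower in IR29, 1 as reported, was 0 to 4 under the alternatives, the highest without IR29 salt replicate 3. It was 2 without FL478 salt replicate 1, 2 or 3 or IR29 salt replicate 1, and 0 when only probe sets above the median level were fitted, where 16 genes of the list remained. This comparison shares the salted FL478 arrays with the FL478 salt change. AOS (LOC4332121), also listed by its name, had the largest value of the list in FL478, -2.08 (SE 0.55, limma adjusted p = 0.258). Its signal was 281 ± 205 in FL478 controls and 32.7 ± 19.9 under salt (SD, n = 3 each). Signals under 32 carry little information, and LOX8 (mean 34.1) and LOX9 (34.4) were as dim in salted FL478. OPR10 had the largest value among adequately bright members in IR29, -0.70 (limma adjusted p = 0.935).

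Downstream of the conjugate that GH3.5 makes, 20 genes with a COI (jasmonate receptor), JAZ (repressor) or TIFY name were measured. The list was drawn by name and is mixed. OsTIFY1a, OsTIFY2a, OsTIFY2b and OsTIFY8 entered it by a TIFY name and not as JAZ repressors. In FL478, 12 of them were lower (median -0.37), with 0 called by limma and 4 at an unadjusted p under 0.05, against 0.169% and 8.97% of all probe sets. In IR29, 10 were lower (median -0.0044), with 0 called by limma and 0 at an unadjusted p under 0.05, against 0.00524% and 6.18%. The largest values were -1.55 for JAZ11 in FL478 (SE 0.95, limma adjusted p = 0.692) and 0.41 for JAZ8 in IR29 (SE 0.54, limma adjusted p = 0.989). Both encode repressors that are degraded when jasmonoyl-isoleucine is present.

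OsTIFY2a (LOC4328300), which belongs to the same TIFY family but not to the JAZ repressors, was 1.12 higher in IR29 than in FL478 under salt (SE 0.24, limma adjusted p = 0.0675). Its means were 290 ± 85.0 and 296 ± 60.8 in control and salted FL478, and 623 ± 185 and 673 ± 10.9 in IR29. The call was lost in 10 of 20 alternatives, among them the omission of any 1 salted array of either line (adjusted p 0.105 to 0.207) or FL478 control replicate 2 (0.107).

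**Figure D5:**
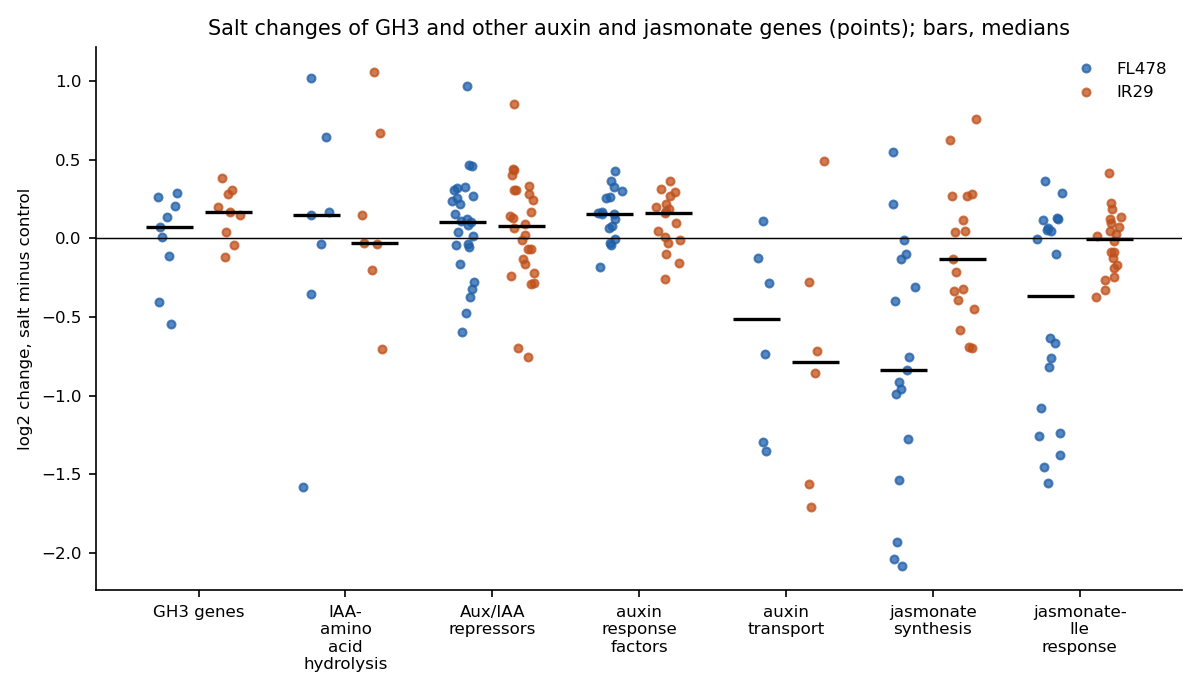
Change with salt (vertical axis, salt minus control of log2(signal + 32)) of the measured genes of the GH3 family and of each auxin or jasmonate list of 6 or more genes (points), with LAX1 kept in the transport list, in FL478 and in IR29. Bars mark each list's median, such as -0.83 for jasmonate synthesis in FL478 against -0.13 in IR29, and 0.07 and 0.17 for the GH3 genes.

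On the auxin side, the largest genotype difference lay in 1 of 7 measured hydrolases. These enzymes release IAA from the amino acid conjugates that GH3 enzymes make. ILL3 (LOC4334707), of this amidohydrolase family, had mean signals of 1536 ± 675 in control FL478 and 491 ± 222 in salted FL478 (n = 3 each), against 91.9 ± 27.3 (n = 2) and 46.0 ± 26.0 (n = 3) in IR29. IR29 was lower in both conditions, with a log2 difference of -3.60 in control plants (SE 0.42, limma adjusted p = 0.00632) and -2.72 under salt (SE 0.38, limma adjusted p = 0.00843), and both were called under all 20 alternatives. The IR29 signals of ILL3 were dim, and whether its probe set reads the transcript of both lines alike was not tested. Its salt changes were -1.58 in FL478 (limma adjusted p = 0.214) and -0.70 in IR29 (adjusted p = 0.899).

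The other 6 hydrolase genes had no call in any comparison. Of all probe sets, 0.169% were called for salt in FL478, 0.00524% for salt in IR29 and 0% for the difference of these changes. For IR29 against FL478 the shares were 0.597% in control plants and 1.75% under salt. Of all 7, 4 were higher under salt in FL478 and 3 in IR29. In each genotype 2 had an unadjusted limma p under 0.05, against 8.97% and 6.18% of all probe sets. ILL2, higher in both, gave 1.02 in FL478 (SE 0.25, unadjusted p = 0.00237, limma adjusted p = 0.228). In IR29 it gave 1.06 (SE 0.28, unadjusted p = 0.00372, limma adjusted p = 0.491). Of the 6 measured genes of the auxin transport list, 5 were lower in each genotype (medians -0.51 and -0.79), with 0 called by limma and 3 at an unadjusted p under 0.05 in each. Without LAX1, left out after its values were seen because it shares only a name with the importers, 4 of 5 were lower in each (medians -0.73 in FL478 and -0.72 in IR29), with 0 called by limma and 3 and 2 at an unadjusted p under 0.05, against 8.97% and 6.18% of all probe sets. OsPIN5a, placed in the list by its PIN name, had the largest values, -1.35 and -1.71.

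The 26 measured Aux/IAA repressors, which auxin removes, had medians of 0.11 in FL478 and 0.08 in IR29. Limma called 0 of the 26 in each, against 0.169% and 0.00524% of all probe sets. At an unadjusted p under 0.05 there were 2 and 1, against 8.97% and 6.18%. The largest values were 0.97 for IAA10 in FL478 and 0.86 for IAA2 in IR29. The 17 auxin response factors, the transcription factors that Aux/IAA proteins restrain, had a median of 0.16 in both, with 0 called and 0 at an unadjusted p under 0.05 by limma in each. Their largest values were 0.43 for ARF2 in FL478 and 0.36 for arf1 in IR29. Of the auxin synthesis genes, FIB gave 0.24 in FL478 (SE 0.34) and -0.125 in IR29 (SE 0.375). OsYUCCA1 gave -0.20 in FL478 (SE 0.29) and -0.22 in IR29 (SE 0.33).

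The genes whose log2 signal followed GH3.6 most closely over the 11 arrays were LOC4329897 (Pearson's r = 0.930, Spearman's rho = 0.945), LOC4343483 (0.922 and 0.800) and LOC4335858 (0.921 and 0.855). For GH3.2, LOC4337650 (0.889 and 0.636), LOC4348309 (0.859 and 0.864) and LOC4332235 (0.855 and 0.882) came first. They were the highest of 17888 probe sets compared in each case. The annotation names none of the 6, the arrays share groups and scaling, and the values are descriptions.

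GH3 genes lie on chromosomes 1, 5, 6 and 7 of the RefSeq assembly, with 1 of them, GH3.7, alone on chromosome 6. GH3.1 and GH3.2 are separated by 120 protein-coding genes, GH3.8 and GH3.9 by 89, and GH3.4 and GH3.5 by 542, so no pair is adjacent. Of the neighbours GH3.6 and GH3.4, with 1455 coding genes between them, 1 was called under salt and the other was not.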

How the data were processed

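The measurements were made on Affymetrix Rice Genome Arrays with RNA from root tips, 1 array per biological replicate. The authors deposited linear signal intensity per probe set, made with GCOS per the labels (version not given in the sources used here) and brought to a common 2% trimmed mean on every array. The methods describe RMA values and SAM, and RMA values were not used here. Of 57381 probe sets, 123 controls were left out. Log2(signal + 32) was fitted with limma 3.58.1 in R 4.3.3, with 1 mean per group over all 11 arrays, 7 residual and 3 prior degrees of freedom, and Benjamini-Hochberg adjustment, called under 0.10 as in the methods. Tables and figures were made with Python 3.11.15, pandas 2.3.3, numpy 2.4.6 and matplotlib 3.10.9.

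Genes were named by RefSeq symbols, through the platform annotation and Entrez identifiers. Of the probe sets, 22436 carry 1 gene name, 95 carry several and 34727 carry no name. The brightest probe set represented a gene. All GH3 genes were named in the text, with the 3 genes most like the GH3 probe set of highest mean and each called GH3 gene, called pathway genes, and otherwise the largest change per list and genotype among probe sets above the median level. Members, lists and tests were chosen with earlier results of these data known. AOS3, ILL3, OsTIFY2a and the jasmonate synthesis counts were rerun under the alternatives as a choice made after seeing them.

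On simulated data the model was tested with 57258 probe sets with 200 changed per genotype (3 runs). Of log2 changes of 1, 27.3% were recovered in FL478 and 18.3% in IR29. Of changes of 2, 77.0% and 67.3% were recovered, and 12.2% and 11.0% of calls were false. Replicate numbers paired the FL478 samples by the data alone (same-number deviations correlated at 0.14 to 0.33 in 3 of 3 pairs), but not control with salt in IR29 (-0.14 to 0.09, 2 pairs). FL478 control and IR29 salt, which only the difference of the salt changes joins, correlated by number at 0.15 to 0.34. The salted arrays of FL478 and IR29 did so at 0.02 to 0.25. Where a left-out array leaves 1 in a group, that array is assumed to vary like the other groups. The alternatives were other offsets, a floor, quantile scaling, a fit of the probe sets above the median level alone, a trended robust variance, the groups of the comparison alone, the replicate block, the GAPDH ratio as a covariate and each array left out. No promoter sequence was at hand, so the planned search for an auxin response motif was not run.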

Additional observations from a re-analysis of the deposited data

Results flagged for a closer look

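The salt changes of GH3.6 had opposite signs in the genotypes, and neither was called: -0.41 in FL478 (limma adjusted p = 0.448), where all 3 salted arrays were below all 3 controls, and 0.17 in IR29 (95% interval -0.21 to 0.55, limma adjusted p = 0.968), where all 3 salted arrays were above both controls. Groups likewise did not overlap for 14% of the probe sets in FL478 and for 21.4% in IR29. The difference of the changes, IR29 minus FL478, was 0.58 on the log2 scale (SE 0.23), with an unadjusted p of 0.0288 in limma's interaction test and an adjusted p of 1.00, so it was not called.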

How the results depend on the processing

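Of 99 counts of called GH3 probe sets under the alternatives 94 were unchanged. In every comparison but IR29 against FL478 under salt, the count was 0 as reported and 0 throughout. The 1 call in that comparison was lost in 5 of 20 alternatives. Of 478 values of single GH3 genes 450 kept direction and call, 5 lost the call and 23 changed sign, none of which had been called. No GH3 probe set became called. The number called in IR29 against FL478 under salt was 0 with only those groups fitted and 0 to 1 with an array left out, as was described for GH3.6. With the GAPDH ratio as a covariate, the salt changes turned to -0.31 for GH3.2 in FL478, 0.10 for GH3.7 in IR29 and -0.057 for GH3.8 in IR29. With the replicate block, GH3.5 in IR29 turned to -0.11, and no GH3 call changed (GH3.6 under salt, limma adjusted p = 0.0889). With an array left out, the FL478 salt changes of GH3.1 ranged from -0.080 to 0.50, of GH3.2 from -0.13 to 0.15, of GH3.8 from -0.35 to 0.11, of GH3.9 from -0.32 to 0.41 and of GH3.11 from -0.25 to 0.62. In IR29 they ranged from -0.40 to 0.052 for GH3.2, -0.20 to 0.41 for GH3.5, -0.17 to 0.083 for GH3.7 and -0.057 to 0.35 for GH3.8. GH3.5 in IR29 against FL478 controls ranged from -0.12 to 0.29. The cause of these shifts was not tested. Averaged over its probe sets, GH3.7 had group means of 216 to 251. Signals under 32, 36.6% to 41.9% of an array, carry little information, which limits GH3.1, GH3.11 and the dim GH3.7 probe sets. Counts of calls over all probe sets, on which the background shares rest, were 97 as reported and 0 to 256 under the alternatives for salt in FL478, 3 and 0 to 80 for salt in IR29, 0 and 0 to 41 for their difference, 342 and 86 to 527 for the genotypes in control plants, and 1000 and 432 to 1418 under salt. The motif search was not run.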
